A study of Mus musculus with 18 samples.

Results

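Ncr1, Tyrobp, Fcer1g and Sh2d1b1 encode an activating receptor of natural killer (NK) cells and adaptor proteins that pass on such signals, and the accessibility of their chromatin was followed by ATAC-seq, which cuts and tags open DNA with the Tn5 transposase. Every peak that the deposited annotation assigns to 1 of these 4 genes was taken, which gave 8 of the 61224 peaks of the larger deposited count table: 1 for Ncr1, 4 for Tyrobp, 2 for Fcer1g and 1 for Sh2d1b1. All peaks were 500 bp wide, so their levels can be compared with each other. The 18 mouse libraries fell into 4 groups of C57BL/6 origin. The mPTCL group held 9 murine peripheral T-cell lymphomas that developed in CD3-deficient recipients given T cells lacking p53. The lymphoma cells were sorted from liver, and the labels name no sort markers, the Cre or allele behind the p53 loss, or an age. The 3 normal groups of 3 libraries each were wild type: T cells (CD3+ Thy1+, spleen), NKT cells (CD3+ and positive for a CD1d tetramer with alpha-GalCer, liver, although their titles carry Sp) and NK cells (CD27- CD11b+, spleen). Each library was made from 10000 cells. Genotype, sort gate and, against T and NK cells, organ differ together between the lymphomas and the normal groups and cannot be told apart. No label ties a normal library to an animal of its own, and p-values therefore rest on a spread between libraries that may be technical.

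NK cells carry no rearranged antigen receptor and are switched on by germline-encoded receptors. NKp46, the product of Ncr1, has a short cytoplasmic tail and signals through partners in the membrane that carry immunoreceptor tyrosine-based activation motifs (ITAMs), chiefly FcRγ (Fcer1g) and CD3ζ (Cd247). DAP12 (Tyrobp) does the same for other activating receptors, among them activating Ly49 receptors. Phosphorylated ITAMs bind the kinases Syk and ZAP-70. EAT-2 (Sh2d1b1) is a small SH2-domain adaptor that binds receptors of the SLAM family. DAP12 and FcRγ also serve receptors of macrophages, granulocytes and mast cells, so an open Tyrobp or Fcer1g locus is not particular to NK cells. Conventional T cells keep most of these loci quiet and use CD3 chains instead.

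Depth differed between groups. Total counts in peaks ran from 670358 to 4844441 in mPTCL, from 979441 to 2358023 in T, from 1433904 to 9097014 in NKT and from 417107 to 596601 in NK libraries. Levels below are counts scaled to library size by TMM (CPM), and 1 count was worth 0.185 to 1.39 CPM in a lymphoma library, 0.137 to 0.799 in an NKT library and 1.59 to 2.11 in an NK library. Even counts outnumbered odd ones, making up 51.2% to 74.1% of the non-zero counts in mPTCL and 80.5% to 84% in NK libraries, so a count of 2 may be a single fragment. Trp53 had peaks in all groups, with 24.2 to 68.2 CPM at 1 promoter peak in mPTCL and 30.3 to 41.6 CPM in T cells. An exonic Trp53 peak (chromosome 11, 69589205 to 69589705) held 2.39 to 15.1 CPM in mPTCL, with at least 3 counts in each library, 0 to 2.13 CPM in T and 0.303 to 3.20 CPM in NKT cells. The NK libraries held 0 to 12.65 CPM there, from 8 counts in all, and overlapped the lymphomas. The labels do not give the extent of the deletion, so these peaks do not check it. The 9 listed T-cell markers summed to 231 to 379 CPM in mPTCL and to 282 to 384 in NK, 585 to 716 in T and 831 to 883 CPM in NKT cells. The sums of lymphomas and NK cells overlapped, but single markers differed. Of the 9, 3 were called higher and 1 (Cd247) lower in mPTCL than in NK cells (all genes: 11.2% higher and 10.3% lower). Cd3e held 28.9 ± 9.38 CPM in mPTCL (SD, n = 9) and 4.85 ± 4.30 CPM in NK cells (SD, n = 3). The 5 measured of 8 listed NK-cell markers summed to 172 to 305 CPM in mPTCL, 171 to 208 in NK, 70.3 to 126 in T and 63.2 to 85.1 in NKT libraries. The NKT-cell markers summed to 992 to 1103 CPM in NKT and at most 332 CPM in any lymphoma. Zbtb16, which encodes the factor PLZF of NKT cells, had 58.2 ± 8.60 CPM in NKT (SD, n = 3), 68.4 ± 14.4 CPM in NK (SD, n = 3) and 11.3 ± 8.83 CPM in mPTCL libraries (SD, n = 9).

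The reference sequences under the promoter peaks are shown first because each of the 4 genes had a promoter peak called above the NKT level in lymphomas. RefSeq (GRCm38.p6, which is mm10) gave a promoter for Ncr1, Fcer1g and Sh2d1b1, that is for 3 of the 4 members, and the 250 bases before each start are printed 5′ to 3′ in the direction of transcription. Capitals mark matches on either strand to 3 short motifs, TGTGGT (bound by RUNX factors), GTGTGA (the core of T-box sites, bound by T-bet and Eomes) and AGGAAG (bound by ETS factors), none of which overlapped another match.
Ncr1 promoter, chr7:4337465-4337714 (plus strand): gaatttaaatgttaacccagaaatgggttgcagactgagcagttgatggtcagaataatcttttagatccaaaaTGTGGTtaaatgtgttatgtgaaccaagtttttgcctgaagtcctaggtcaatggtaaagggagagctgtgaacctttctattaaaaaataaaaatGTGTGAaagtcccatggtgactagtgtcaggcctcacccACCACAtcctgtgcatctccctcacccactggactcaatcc
Fcer1g promoter, chr1:171234350-171234599 (minus strand): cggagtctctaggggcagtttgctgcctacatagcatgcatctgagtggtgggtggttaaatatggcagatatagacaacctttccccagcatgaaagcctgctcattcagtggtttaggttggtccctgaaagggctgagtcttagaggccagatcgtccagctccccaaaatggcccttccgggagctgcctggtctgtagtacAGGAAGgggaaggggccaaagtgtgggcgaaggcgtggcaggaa
Sh2d1b1 promoter, chr1:170277068-170277317 (plus strand): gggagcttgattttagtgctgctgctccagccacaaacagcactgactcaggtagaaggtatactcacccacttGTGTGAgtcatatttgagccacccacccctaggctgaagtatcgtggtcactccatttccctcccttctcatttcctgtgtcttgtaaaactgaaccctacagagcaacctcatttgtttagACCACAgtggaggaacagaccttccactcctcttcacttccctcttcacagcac
The Ncr1 promoter held 2 RUNX matches, with the base nearest the start lying 171 and 36 bases before it, and 1 T-box match 75 bases before it. The Sh2d1b1 promoter held 1 RUNX match 49 bases and 1 T-box match 171 bases before the start. The Fcer1g promoter held neither, and had 1 ETS match 39 bases before the start. Among 32817 RefSeq promoter windows of the same 250 bases, 14.0% held the RUNX letters, 12.3% the T-box letters and 29.5% the ETS letters. These motifs were chosen after the sequences had been read, a match is a description of letters, and no binding was measured.

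The receptor gene came first. The Ncr1 promoter peak (chromosome 7, 4337492 to 4337992, mm10, centred 27 bp past the start of the gene) was open in the lymphomas and in NK cells and near closed in NKT cells. Across the 9 lymphomas it ranged from 0 to 26.2 CPM with a median of 16.6 CPM. The NK libraries held 12.4, 37.9 and 33.3 CPM, the T libraries 2.13, 0 and 6.54 CPM. The 3 NKT libraries were at 0, 0.757 and 1.23 CPM. In counts, the 3 NKT libraries together had 14 and the 9 lymphomas 432. The lymphomas and NKT cells would not overlap at this peak but for mPTCL 8, which had 0 counts in the shallowest lymphoma library, where a count of 0 still allows 3 counts. The other 8 lymphomas held 8.96 CPM or more, above all 6 T and NKT libraries. The difference from NKT cells was 4.17 ± 0.74 on the log2 scale (SE), with an adjusted p of 6.42e-05. The difference from T cells was 2.28 ± 0.68 (adjusted p = 0.0165), and it missed the threshold without T 1 (adjusted p = 0.0664) and without T 2 (0.0875). NK cells exceeded NKT cells by 4.94 ± 0.83 (adjusted p = 0.000221) and T cells by 3.05 ± 0.79 (adjusted p = 0.0212, or 0.0729 without T 1, 0.0801 without T 2, 0.0757 without NK 2 and 0.0663 without NK 3). The lymphomas did not differ from NK cells beyond the spread at -0.77 ± 0.55 (adjusted p = 0.408).

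**Figure D1:**
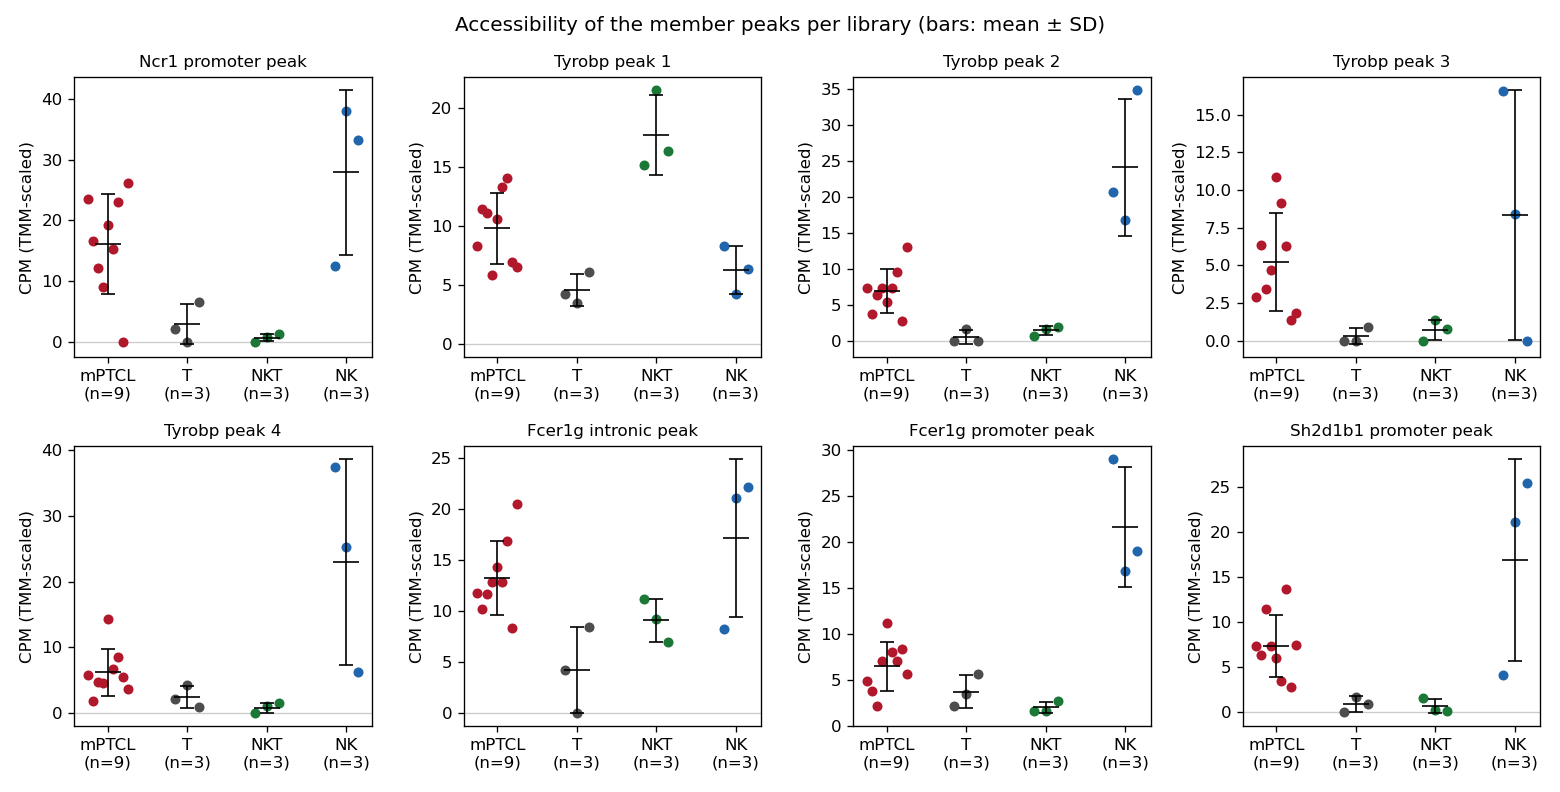
Accessibility of each of the 8 peaks in TMM-scaled CPM (y axis, its own scale per panel) by group (x axis, mPTCL n = 9, T, NKT and NK n = 3 each), with 1 point per library and bars for the mean ± SD. The Ncr1 panel shows mPTCL 8 at 0 CPM below the other lymphomas, and the panel of Tyrobp peak 1 shows the NKT libraries at 15.2 to 21.5 CPM above all lymphomas.

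Tyrobp, the DAP12 gene, carried 4 peaks on chromosome 7 that did not share a pattern. Peak 1 (30409877 to 30410377, classed as flanking) was centred at -3655 bp from the gene's annotated left end, peak 2 (30410820 to 30411320, flanking) at -2712 bp, peak 3 (30412922 to 30413422, promoter) at -610 bp and peak 4 (30413636 to 30414136, promoter) at 104 bp. Peaks 2 and 4 were highest in NK cells, while peak 1 was highest in NKT cells.
Peak 2 held 20.7, 16.9 and 34.9 CPM in NK cells against 0.799, 1.67 and 2.06 CPM in NKT cells and 0, 1.73 and 0 CPM in T cells. Its lymphoma values ran from 2.79 through a median of 7.36 to 13.1 CPM, so that every lymphoma lay above all T and NKT libraries and below all NK libraries. The lymphomas exceeded NKT cells by 2.07 ± 0.61 log2 (adjusted p = 0.00836) and lay below NK cells (difference -1.77 ± 0.52, adjusted p = 0.0252, or 0.201 without NK 3). The T libraries held 2 counts in all at this peak, and the ratio of pooled scaled counts, mPTCL over T, was 15.5 with an exact binomial 95% interval of 4.24 to 129 (adjusted p of the fit = 0.00326, or 0.0501 without T 3). With all counts halved, since counts may come in read pairs, the interval widened to 2.74 to 624. These intervals cover counting error only.
Peak 4, over the start of the gene, held 37.3, 25.3 and 6.35 CPM in NK cells, 0, 1.06 and 1.51 CPM in NKT cells and 2.13, 4.33 and 0.935 CPM in T cells. The lymphomas ranged from 1.91 through 5.58 to 14.3 CPM, all above the NKT libraries, and overlapped the T libraries. They exceeded NKT cells by 2.54 ± 0.71 log2 (adjusted p = 0.00542). Their difference from T cells was 1.47 ± 0.74 (adjusted p = 0.156, or 0.0492 with DESeq2). Against NK cells the difference was -1.80 ± 0.58 with an adjusted p of 0.0416. That call failed on leaving out any 1 of 9 libraries in turn (6 lymphomas, T 1, NK 1 or NK 2), with adjusted p up to 0.316 without NK 1.
Peak 3 was the weakest of the 8 peaks. Its lymphoma values were 1.39 to 10.9 CPM with a median of 4.67, the NK libraries held 16.6, 8.43 and 0 CPM, the NKT cells 0, 1.36 and 0.822 CPM and the T cells 0, 0 and 0.935 CPM. All 9 lymphomas lay above the 6 T and NKT libraries, though mPTCL 8 did so with 1 count, at 1.39 against 1.36 CPM. The difference from NKT cells was 2.56 ± 0.90 log2 (adjusted p = 0.0227), which rose to 0.0555, 0.0538 and 0.0881 without NKT 1, 2 and 3. The T libraries held 2 counts in all, giving a pooled ratio of 13.3 with an interval of 3.61 to 111, or 2.31 to 531 with counts halved (adjusted p of the fit = 0.0298, or 0.0962 without T 1 and 0.105 without T 2). The difference from NK cells was -0.56 ± 0.84 (adjusted p = 0.734) and was 0.54 without NK 1.
Peak 1 went the other way. The NKT libraries held 15.2, 21.5 and 16.3 CPM, above every lymphoma (5.84 to 14.1 CPM, median 10.6), every T library (4.26, 3.46 and 6.08 CPM) and every NK library (8.29, 4.22 and 6.35 CPM, from 10 counts in all). NKT cells exceeded T cells by 1.90 ± 0.54 log2 (adjusted p = 0.0301), a call that was lost without any single T or NKT library (adjusted p from 0.0673 to 0.17) and without mPTCL 7 (0.0506). The lymphomas differed from NKT cells (difference -0.82 ± 0.38, adjusted p = 0.0736) and from T cells by 1.08 ± 0.48 (adjusted p = 0.105), neither past the threshold. The first passed in 1 of 9 other settings, a fit of those 2 groups alone (adjusted p = 0.0488). The second passed in 5 of 9, among them RLE size factors (0.0454) and DESeq2 (0.0197), with adjusted p up to 0.178 in the others. With counts summed over its 4 peaks, Tyrobp was 0.77 ± 0.28 log2 higher in lymphomas than in NKT cells (adjusted p = 0.0293) and 1.14 lower than in NK cells (-1.14 ± 0.28, adjusted p = 0.00518), a smaller difference from NKT cells than at peak 2, 3 or 4 alone. The first of these calls was lost without mPTCL 5 (0.0584), mPTCL 7 (0.0683), NKT 1 (0.114) or NKT 3 (0.106), and the second without NK 1 (0.0585) and with promoter peaks only (-1.33, adjusted p = 0.0652).

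Fcer1g, which encodes FcRγ and lies on the minus strand of chromosome 1, had a promoter peak and an intronic peak. The promoter peak (171234141 to 171234641, centred at -42 bp from the start) was highest in NK cells, with 29.0, 16.9 and 19.0 CPM. The lymphomas held 2.12 to 11.2 CPM with a median of 7.01, T cells 2.13, 3.46 and 5.61 CPM and NKT cells 1.60, 1.67 and 2.74 CPM. Every NK library was above every other library, and the lymphomas overlapped T cells and, through mPTCL 3, NKT cells. The lymphomas lay below NK cells (difference -1.73 ± 0.51 log2, adjusted p = 0.0265, or 0.136 without NK 1 and 0.066 without NK 3). They lay above NKT cells by 1.61 ± 0.57 (adjusted p = 0.024, or 0.119 without NKT 2 and 0.0504 without NKT 3). The difference from T cells was 0.71 ± 0.58 (adjusted p = 0.394).
The intronic peak (171231758 to 171232258, centred 2341 bp into the gene) was open in most libraries. The lymphomas held 8.36 to 20.6 CPM with a median of 12.9, NK cells 8.29, 21.1 and 22.2 CPM, NKT cells 11.2, 9.24 and 6.99 CPM and T cells 4.26, 0 and 8.41 CPM. Lymphomas, NK and NKT cells overlapped. The difference from T cells, 1.52 ± 0.54 log2, passed narrowly (adjusted p = 0.0428) and was lost without T 1 (0.0993), T 2 (0.167), mPTCL 4 (0.0528), NKT 2 (0.0529) or NKT 3 (0.0514). The difference from NKT cells was 0.58 ± 0.46 (adjusted p = 0.309), or 1.05 with DESeq2 (adjusted p = 0.013).

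Sh2d1b1, the EAT-2 gene on chromosome 1, had a single promoter peak (170277058 to 170277558, centred at -10 bp from the start). The NK libraries held 4.15, 21.1 and 25.4 CPM, from 2, 10 and 16 counts. The lymphomas ranged from 2.79 through a median of 7.36 to 13.7 CPM. T cells held 0, 1.73 and 0.935 CPM from 4 counts in all, and NKT cells 1.60, 0.303 and 0.137 CPM from 5. Each of the 9 lymphomas lay above all 6 T and NKT libraries, although the value of mPTCL 8 rests on 2 counts. The difference was 4.11 ± 0.85 log2 from NKT cells (adjusted p = 0.000391) and 2.95 ± 0.85 from T cells (adjusted p = 0.0136, or 0.0614 without T 1 and 0.0712 without T 3). The difference from NK cells was -1.17 ± 0.60 (adjusted p = 0.218), a spread that neither separates the groups nor shows them alike.

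Set side by side, 6 of the 8 peaks were called higher and none lower in mPTCL than in NKT cells, where edgeR called 42.6% of all 61220 tested peaks, 23.2% higher and 19.4% lower. The members' median difference was 2.30 log2 against 0.27 over all peaks. Against T cells 5 of 8 were called higher and none lower (all peaks: 19.7%, 8.27% higher and 11.4% lower), with a median of 1.90 against 0.26. The T count fell to 1, 2 and 3 without T 1, T 2 and T 3. Against NK cells 3 of 8 were called lower and none higher (all peaks: 9.79%, 6.03% higher and 3.76% lower), with a median of -0.97 against 0.30, and 1 was called without NK 1 or without NK 3. For the directions with no call, an unadjusted p below 0.05 was reached by 1 peak against NKT cells (Tyrobp peak 1, lower) and by 0 against T and NK cells, and DESeq2 called 0 there. Between normal cells, 6 of 8 peaks were higher in NK than NKT cells (all peaks: 17.1%, 6.81% higher and 10.3% lower) and 5 of 8 were higher in NK than T cells (all peaks: 4.8%, 2.02% higher and 2.77% lower). The NK against T count was 2 without T 1, T 3 or NK 2 and 3 without T 2 or NK 3. Tyrobp peak 1 was the only member called between NKT and T cells (all peaks: 5.23%, 3.48% higher and 1.75% lower). The NK excess over NKT cells was largest at Sh2d1b1 (5.28 ± 0.95 log2, adjusted p = 0.000443) and Ncr1, followed by Tyrobp peak 4 (4.34 ± 0.84, 0.000832), Tyrobp peak 2 (3.84 ± 0.73, 0.000751) and the Fcer1g promoter (3.34 ± 0.69, 0.00167). Tyrobp peak 3 was at 3.12 ± 1.09 (0.044), and was not called without mPTCL 4 or without any 1 of the NKT libraries, NK 1 or NK 2 (adjusted p up to 0.247). The comparisons share libraries, so their counts are not separate evidence. In a bulk library, more cells with an open site and more cutting per cell cannot be told apart.

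**Figure D2:**
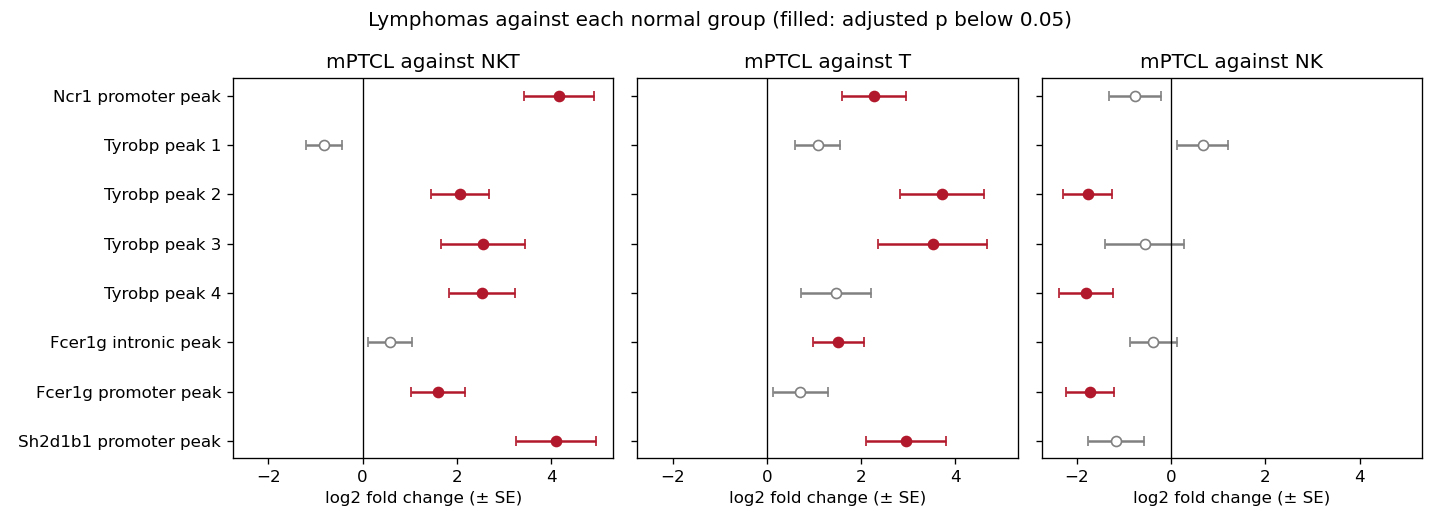
Log2 fold change (x axis) with its SE for each of the 8 peaks (y axis) in the lymphomas against NKT, T and NK cells, 1 panel per comparison, with filled points for an adjusted p below 0.05. Of the 8 points, 6 are filled to the right of 0 against NKT, 5 against T, and 3 are filled to the left of 0 against NK.

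Weak peaks as a whole were higher in lymphomas than in NKT cells, so the members were also read beside peaks of their own level. With all tested peaks divided into 10 classes by mean level, the median difference from NKT cells was 2.47 log2 in the weakest class, where 55.9% of peaks were called higher, 1.13 in class 3, 0.73 in class 4 and -0.10 in class 7, where 14.8% were. Tyrobp peak 3, in class 1, lay close to its class median with 2.56. Tyrobp peak 2 (2.07) and the Fcer1g promoter peak (1.61), in class 4, and Tyrobp peak 4 (2.54), in class 3, lay above theirs. Ncr1 (4.17), in class 7, and Sh2d1b1 (4.11), in class 3, lay farthest above. Under a cyclic loess normalization, which removes such a dependence on level, the Ncr1 promoter peak was the only member still called against NKT cells, at 2.85 (adjusted p = 0.0193), while Sh2d1b1 was at 1.35 (adjusted p = 0.156) and Tyrobp peak 3 at 0.21 (0.913). Tyrobp peaks 2 and 4 and the Fcer1g promoter were then at 0.82, 1.14 and 0.76 (adjusted p = 0.361, 0.267 and 0.372). Against T cells the same normalization left 2 calls, Tyrobp peak 2 and the Fcer1g intronic peak, with Ncr1 at 2.12 (0.0791). Against NK cells the class medians lay between 0.23 and 0.43 in classes 1 to 9 and at -0.10 in class 10, which held no member. Under cyclic loess 4 members were called lower against NK cells, Sh2d1b1 among them at -1.72 (0.0468), where 5185 of all 61220 peaks were called lower. Weak peaks were also higher in NK than NKT cells, with class medians of 2.11 in class 1, 0.58 in class 3 and -0.51 in class 7. For NK against NKT cells cyclic loess left 5 members called higher (all peaks: 2762 higher and 3637 lower). Tyrobp peak 3 was then at 1.21 (adjusted p = 0.475).

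**Figure D3:**
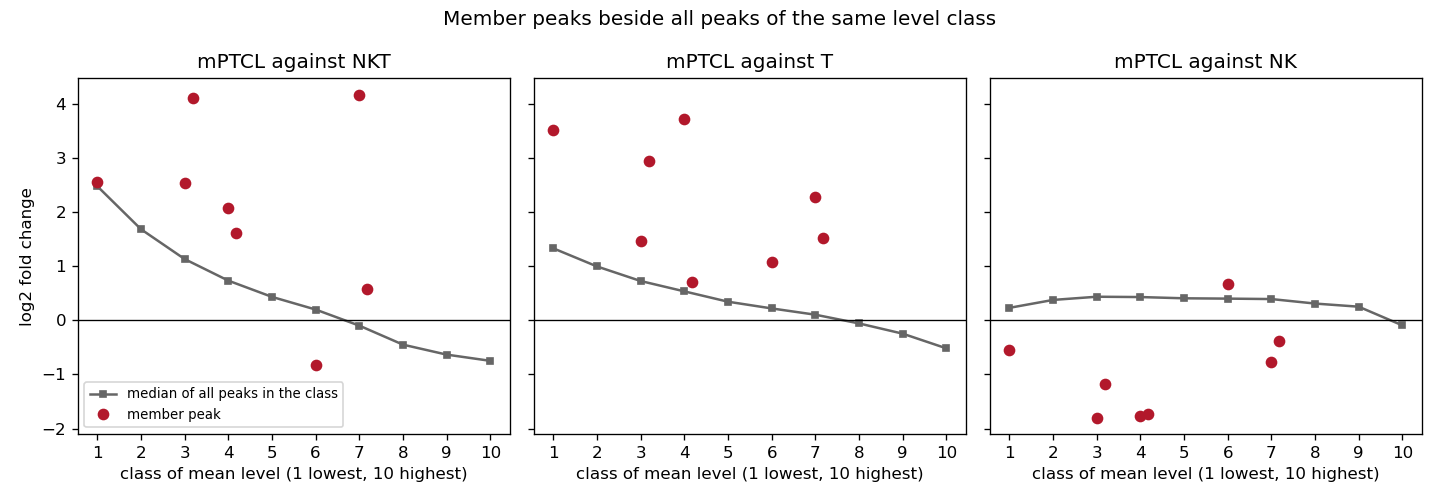
Log2 fold change of the 8 peaks (red points, y axis) by their class of mean level (x axis, 1 lowest to 10 highest), beside the median of all tested peaks in each class (grey line), in the lymphomas against NKT, T and NK cells. Against NKT cells the grey line falls from 2.47 in class 1, where Tyrobp peak 3 (2.56) sits beside it, and the Ncr1 peak in class 7 stands at 4.17 where the class median is -0.10.

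Peaks around the members were read next. Near Ncr1, 2 of 4 other peaks within 100 kb were called higher in lymphomas than in NKT cells, and near Sh2d1b1 4 of 7 were. Of all peaks, 23.2% were called higher and 19.4% lower. Weak peaks were called higher more often, which these counts do not allow for. An unnamed intergenic peak upstream of Ncr1 (chromosome 7, 4323378 to 4323878) was high in NK cells and low in NKT cells, as the Ncr1 promoter was. It held 9.52 to 24.9 CPM in NK cells, 0 to 14.3 CPM in lymphomas (0 in 1 of 9), 0 to 6.54 CPM in T cells and 0 to 0.606 CPM in NKT cells, and was 3.78 ± 0.82 log2 higher in lymphomas than in NKT cells (adjusted p = 0.000662). It was not called against T cells, in lymphomas (1.003 ± 0.69, adjusted p = 0.302) or in NK cells (2.17 ± 0.84, adjusted p = 0.117). Next to Sh2d1b1, intergenic peaks on either side (chromosome 1, 170270506 to 170271006 and 170292305 to 170292805) were 3.65 ± 0.66 (adjusted p = 8.58e-05) and 3.36 ± 0.81 (adjusted p = 0.00175) higher, and an intronic peak of Nos1ap (170353138 to 170353638) was 3.12 ± 0.79 higher (adjusted p = 0.00252). These 4 calls held on leaving out any 1 library, and under cyclic loess the one directly upstream of Sh2d1b1 alone was still called (2.07, adjusted p = 0.0119), with the one upstream of Ncr1 at 1.41 (0.238). The nearer one, upstream, held 5.39 to 20.7 CPM in lymphomas, 10.4 to 16.9 CPM in NK cells, at most 1.37 CPM in NKT cells and a single count in the 3 T libraries. The downstream one held 1.87 to 20.4 CPM in lymphomas, 0 to 6.35 CPM in NK, 2.13 to 5.19 CPM in T and 0 to 1.51 CPM in NKT cells. It was called neither in NK against NKT cells (2.23 ± 1.08, adjusted p = 0.144) nor in lymphomas against T cells (1.26 ± 0.74, adjusted p = 0.225).
Around Tyrobp and Fcer1g more of the other peaks were called lower than higher, where 19.4% of all peaks were called lower and 23.2% higher. Of 29 other peaks within 100 kb of the Tyrobp peaks, 3 were called higher and 8 lower in lymphomas than in NKT cells, with a median of -0.18. Hcst, which encodes the adaptor DAP10 and is the next gene along from Tyrobp, had a promoter peak (30419573 to 30420073) that was lower in lymphomas (difference -1.22 ± 0.31, adjusted p = 0.00284), with 34.9 ± 10.4 CPM in NKT cells (SD, n = 3) and 15.2 ± 4.54 CPM in lymphomas (SD, n = 9). Under cyclic loess this difference was -0.72 (adjusted p = 0.184). The promoter peaks of Nfkbid beyond it were also lower or not called. Of 15 other peaks near Fcer1g, 1 was called higher and 4 lower, with a median of -0.56.
Copy number was not measured. Chromosome 7 took 5.25% to 7.22% of the counts in lymphomas and 6.71% to 7.37% in normal libraries, and chromosome 1 took 4.75% to 6.48% and 6.15% to 7.15%. With TMM scaling done within each chromosome, 6 member peaks were called higher against NKT and 6 against T cells, and 1 (Tyrobp peak 2) was called lower against NK cells. Of all 61220 peaks, that setting called 13081 higher against NKT, 4440 higher against T and 1717 lower against NK cells.

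**Figure D4:**
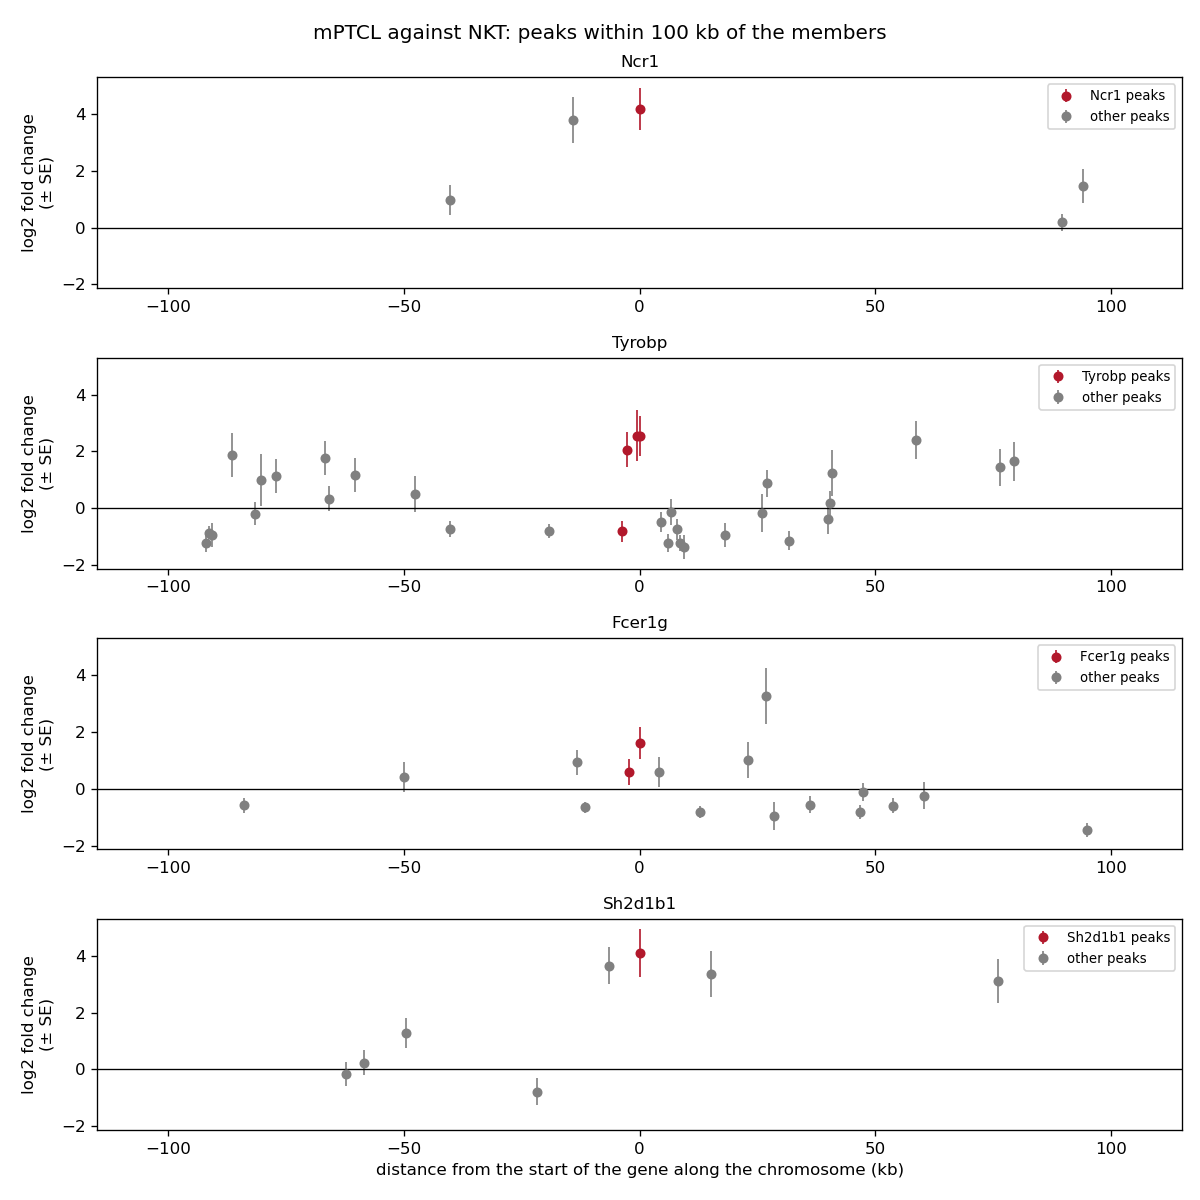
Log2 fold change with its SE (y axis) of lymphomas against NKT cells for the peaks of Ncr1, Tyrobp, Fcer1g and Sh2d1b1 (red) and all other peaks within 100 kb of them (grey), by distance from the start of the gene along the chromosome in kb (x axis). Near Sh2d1b1 the peaks on both sides lie at 3.65 and 3.36, while near Tyrobp 8 of 29 other peaks were called lower (all peaks: 19.4%).

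The lymphomas also varied among themselves. Ncr1 spanned 0 to 26.2 CPM, highest in mPTCL 9 and lowest in mPTCL 8, and Sh2d1b1 spanned 2.79 to 13.7 CPM, highest in mPTCL 7 and lowest in mPTCL 8. At Tyrobp peaks 3 and 4 mPTCL 5 was highest, at 10.9 and 14.3 CPM, and it was highest at the Fcer1g promoter too, at 11.2 CPM. Whether the 4 genes rise and fall together over the 9 lymphomas was examined with the log2 CPM of the gene sums. None of the 6 pairs passed an exact permutation test after Benjamini-Hochberg adjustment. The highest r was that of Ncr1 with Tyrobp (Pearson r = 0.653, exact permutation p = 0.0492, adjusted p = 0.215, and Spearman rho = 0.467, exact permutation p = 0.213, adjusted p = 0.615), and it was 0.074 without mPTCL 4 and mPTCL 8. The lowest was that of Fcer1g with Sh2d1b1 (r = 0.057, exact permutation p = 0.883, adjusted p = 0.883, and rho = 0.033, exact permutation p = 0.948). That order did not hold for the highest peak of each gene, where r was 0.702 for Ncr1 with Fcer1g (exact permutation p = 0.0166, adjusted p = 0.0996), 0.378 for Ncr1 with Tyrobp (exact permutation p = 0.413, adjusted p = 0.619) and 0.517 for Fcer1g with Sh2d1b1 (exact permutation p = 0.146, adjusted p = 0.291). The highest peak by mean level was peak 1 for Tyrobp, the one highest in NKT cells, and the intronic peak for Fcer1g. At these counts, 0 to 124 per lymphoma for Ncr1 and 2 to 74 for Sh2d1b1, the sampling of reads limits what these 9 libraries can show.

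Other genes of the pathway were read from counts summed per gene over all its peaks, for 5 lists with 77 genes, 68 of them with a peak. Against NKT cells 13 were called higher and 25 lower, where edgeR called 45.6% of all 20325 genes (25.5% higher, 20.2% lower), and the lists' median was -0.09 against 0.06 over all genes. The split turned to 19 higher and 17 lower under RLE size factors and 18 and 17 with library totals. Against T cells 15 were higher and 6 lower (all genes: 30.9%, 16.2% higher and 14.7% lower), and against NK cells 8 were higher and 7 lower (all genes: 21.5%, 11.2% higher and 10.3% lower). NK cells exceeded NKT cells at 9 genes and lay below them at 12 (all genes: 14.8%, 8.52% higher and 6.31% lower), and exceeded T cells at 7 and lay below at 1 (all genes: 5.5%, 3.3% higher and 2.2% lower). NKT cells were higher than T cells at 3 and lower at 2 (all genes: 4.55%, 2.32% higher and 2.23% lower). The pathway counts between lymphomas and T cells fell to 10 without T 1, those between NK and T cells to between 3 and 5 without any 1 T library, NK 2 or NK 3, and those between NKT and T cells to 3 without any 1 T library, NKT 1 or NKT 2.
Among the activating receptors 4 of 13 were higher and 4 lower in lymphomas than in NKT cells, and 6 were higher than in T cells. Klrb1a, a receptor of the NKR-P1 family, was 1.99 ± 0.51 log2 above NKT cells (adjusted p = 0.00294) and 1.65 ± 0.53 above T cells (adjusted p = 0.0205). Cd244a, the 2B4 receptor that EAT-2 binds, was 1.35 ± 0.25 above NKT cells (adjusted p = 0.000196), at 35.4 to 97.4 CPM in lymphomas and 21.8 to 29.6 CPM in NKT cells. Fcgr3, the IgG receptor CD16 that needs FcRγ at the surface, was lower than in NKT cells (difference -0.95 ± 0.35, adjusted p = 0.0261), and Cd27 (difference -1.23 ± 0.42, adjusted p = 0.0203). Klrk1, the NKG2D gene, held 22.8 to 60.9 CPM in lymphomas, 27.8 to 55.9 in NKT, 31.2 to 42.7 in T and 21.6 to 32.9 in NK cells, with all groups overlapping. Klrb1c, the NK1.1 gene, was 1.57 ± 0.47 above T cells (adjusted p = 0.0123). On leaving out single libraries, Klrb1a against T cells was not called without T 1, T 2 or T 3 (adjusted p = 0.0697, 0.0678 and 0.0829), nor Klrb1c without T 1 (0.059) or T 3 (0.0644). Against NKT cells the same held for Fcgr3 without NKT 1, NKT 2 or NKT 3 (0.0504, 0.1 and 0.0895) and for Cd27 without NKT 1 (0.0858) or NKT 2 (0.0669), and Fcgr3 was called in 5 of 10 other settings (adjusted p up to 0.18). In the smaller deposited table Cd27 was at -0.61 (0.437), and with promoter peaks only it missed the threshold (0.0553).
In the adaptor list 3 of 13 genes were called above and 4 below NKT cells, shares near those of all genes (25.5% and 20.2%). Lat2, a membrane scaffold used by NK, B and mast cells, was 2.81 ± 0.39 log2 above NKT cells (adjusted p = 7.61e-06) and 2.01 ± 0.39 above T cells (adjusted p = 0.000463). It held 32.7 to 132 CPM in lymphomas, 64.7 to 86.2 in NK, 2.64 to 14.4 in NKT and 12.7 to 24.5 CPM in T cells. Gab2, a docking protein, was 2.04 ± 0.30 above NKT cells (adjusted p = 1.41e-05). Cd247, the CD3ζ gene, was 1.08 lower than in T cells (-1.08 ± 0.19, adjusted p = 0.00016) and 1.36 lower than in NK cells (-1.36 ± 0.20, adjusted p = 4.61e-05). The Cd247 differences shrank to -0.08 from T cells (adjusted p = 0.907) and -0.43 from NK cells (0.54) with promoter peaks only. Cd247 was also lower than in NKT cells (difference -0.50 ± 0.19, adjusted p = 0.031). That call held in 16 of 18 fits that left out a library and in 3 of 10 other settings. Lat, the scaffold of T-cell signalling, was lower than in NKT cells (difference -0.78 ± 0.26, adjusted p = 0.0153, or 0.0741 without NKT 1), and 1.14 ± 0.39 above NK cells (adjusted p = 0.0351, or 0.0525 without mPTCL 2, 0.171 without NK 1 and 0.121 without NK 3). Pstpip1 was lower than in NKT cells (difference -0.998 ± 0.20, adjusted p = 0.000414), and Lcp2, the SLP-76 gene, was 1.14 ± 0.25 above NK cells (adjusted p = 0.00161, or 0.0788 with TMM within each chromosome, or a difference of 0.39 and an adjusted p of 0.586 with promoter peaks only). Gab2 was 0.85 ± 0.29 above T cells (adjusted p = 0.0272, or 0.125 without T 1 and 0.116 without T 3). In the smaller table Gab2 against T cells was at 0.33 (0.645) and Lat against NKT cells at -0.38 (0.27), and Lat also missed the threshold against NKT cells with TMM within each chromosome (0.0893) and promoter peaks only (0.078) and against NK cells in a fit of the 2 groups (0.0853) and with halved counts (0.0574). Hcst held a median of 37.1 and at most 49.0 CPM in lymphomas and 47.6 to 56.8 CPM in NKT cells. The T libraries held 36.51 to 46.35 CPM and the NK libraries 21.58 to 49.28 CPM. In lymphomas the Hcst sum was not called against NKT (adjusted p = 0.0809), T (0.759) or NK cells (0.673). In each of these comparisons 0 of 18 fits that left out a library and 0 of 10 other settings called it. Sh2d1b2, a nearby paralogue of Sh2d1b1, held 3.41 to 21.8 CPM in lymphomas, 2.44 to 3.96 in NKT, 2.64 to 9.05 in T and 4.11 to 22.2 CPM in NK cells. Sh2d1a, which is on the adaptor list, was not analysed here.
Of the kinases and effectors, 3 of 21 were above and 8 below the NKT level. Syk was 1.67 ± 0.46 log2 higher than in NKT cells (adjusted p = 0.00471) and 1.90 lower than in NK cells (-1.90 ± 0.40, adjusted p = 0.00127), with 4.65 to 19.4 CPM in lymphomas, 38.0 to 47.5 in NK and 2.64 to 3.96 CPM in NKT cells. Zap70 showed the opposite order in normal cells, with 132 to 144 CPM in NKT and 17.3 to 64.9 CPM in NK cells. It was 0.94 ± 0.26 higher in lymphomas than in NK cells (adjusted p = 0.0119, or 0.12 without NK 2). Against NKT cells Zap70 was called lower in lymphomas (adjusted p = 0.0204), and in 15 of 18 fits that left out a library. That call held in 6 of 10 other settings, where the difference ran from -0.59 to -0.35. Plcg2, the phospholipase downstream of Syk, was 2.31 ± 0.25 above NKT cells (adjusted p = 3.84e-07), and its paralogue Plcg1 was lower (difference -1.09 ± 0.24, adjusted p = 0.000975, or -0.31 and 0.347 with promoter peaks only). Prkcq, the gene of a T-cell protein kinase C, was lower than in NKT cells (difference -1.04 ± 0.17, adjusted p = 3.8e-05), although with promoter peaks only the difference was 0.05 (0.925). It was also lower than in T cells (difference -0.56 ± 0.17, adjusted p = 0.0167, or 0.103 without T 1 and 0.0945 without T 3), as was Bcl10 (difference -0.61 ± 0.20, adjusted p = 0.0225, or 0.141 without T 1 and 0.0557 without T 2). Lyn was 0.83 ± 0.31 above T cells (adjusted p = 0.0423) and below NK cells (difference -1.46 ± 0.28, adjusted p = 0.000536). The call for Lyn against T cells was lost in 8 of 18 fits that left out a library, those without mPTCL 3, 5, 7 or 8, NKT 2 or any 1 T library (adjusted p up to 0.157 without T 2). Fgr, another Src-family kinase gene, was 1.01 ± 0.21 above T cells (adjusted p = 0.000975) and 0.65 ± 0.23 above NK cells (adjusted p = 0.0394, lost in 6 of 18 such fits: those without mPTCL 4, 6 or 7 and without any 1 NK library, up to 0.156 without NK 3). In the smaller table Lyn was at -0.30 against NK cells (0.673) and 0.16 against T cells (0.825), Fgr at 0.58 against T cells (0.361) and Bcl10 at -0.45 (0.1). In the 10 other settings Lyn against T cells was called in 7, Prkcq against T cells in 7 (0.37 and not called with promoter peaks only) and Fgr against NK cells in 5.
Negative regulators had 2 of 15 genes higher (Cd300a at 2.38 ± 0.53 and Ptpn11 at 0.86 ± 0.22) and 6 lower than in NKT cells, among them Cblb, a ubiquitin ligase that restrains NK activation, at -1.24 ± 0.23 (adjusted p = 0.000194), and Inpp5d, the SHIP1 phosphatase gene, at -1.04 ± 0.19. Cblb was also lower than in T cells (-1.18 ± 0.24, adjusted p = 0.000586) and NK cells (-1.33 ± 0.24, adjusted p = 0.000301), with 103 to 300 CPM in lymphomas and 413 to 662 CPM in NK cells. Sla, which encodes the adaptor SLAP, was 1.29 ± 0.25 above T cells (adjusted p = 0.00037) and 0.98 ± 0.25 above NK cells (adjusted p = 0.00593), but with TMM within each chromosome neither difference passed (0.119 and 0.445), nor did that from T cells with promoter peaks only (0.0893), and Ptpn11 against NKT cells did not either (0.0978).
In the SLAM family, several of whose receptors bind EAT-2, 1 of 6 genes was higher (Slamf8, whose tail lacks the motif that EAT-2 binds, 1.82 ± 0.68, adjusted p = 0.0298) and 3 were lower than in NKT cells. Slamf6 was lower than in NKT (-2.11 ± 0.33, adjusted p = 2.65e-05), T (-1.85 ± 0.35, adjusted p = 0.000307) and NK cells (-1.59 ± 0.40, adjusted p = 0.00602, or 0.17 without NK 1). Slamf1 was lower than in NKT cells (-1.54 ± 0.28, adjusted p = 0.000123) and T cells (-0.86 ± 0.30, adjusted p = 0.0295, or 0.0821, 0.0715 and 0.113 without T 1, T 2 and T 3). The Slamf8 call was lost without NKT 1 (0.0566), NKT 2 (0.102) or NKT 3 (0.129). With promoter peaks only Slamf1 was not called against NKT cells (-1.13, 0.0801) or T cells (-0.35, 0.662), and against T cells it also missed with TMM within each chromosome (0.12) and in a fit of the 2 groups (0.0517).
Between the normal cells, the pathway genes that differed between NK and NKT cells included kinases and adaptors in both directions. Syk (3.57 ± 0.55 log2, adjusted p = 0.000116), Lyn (3.01 ± 0.37, 8.23e-06), Lat2 (2.94 ± 0.46, 0.000121) and Gab2 (2.41 ± 0.36, 8.92e-05) were higher in NK cells. Zap70 (-1.53 ± 0.30, 0.00114), Lck (-1.47 ± 0.29, 0.00152), Lat (-1.92 ± 0.42, 0.00324), Lcp2 (-1.17 ± 0.28, 0.00583) and Ptpn22 (-1.15 ± 0.25, 0.00294), which act in T-cell receptor signalling, were lower. Those 9 calls held on leaving out any 1 library, but Lcp2 was not called with promoter peaks only (-0.28, 0.782) or Lyn in the smaller table (1.71, 0.057). Cd27 was lower too (-2.56 ± 0.72, 0.0182, or 0.0515 without NK 1, 0.0683 without NK 2 and 0.491 in the smaller table), but the NK gate selects against CD27. Slamf7, a receptor that EAT-2 serves, was lower in NK than NKT cells (-1.28 ± 0.24, 0.00101) and 2.20 ± 0.24 higher in NKT than T cells (4.77e-06, or 0.102 with promoter peaks only).

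Markers of other cell types moved along with some of these differences. Of 16 myeloid and Kupffer-cell markers 8 had a peak, and their sum was 150 to 220 CPM in lymphomas, 141 to 183 in NK, 97.2 to 113 in T and 86.9 to 97.2 CPM in NKT libraries. Of these 8, 5 were called higher in lymphomas than in NKT cells (Cd68, Spi1, Cebpa, Mpo and Fcgr1) and 3 higher than in T cells. Of all genes, 25.5% were called higher and 20.2% lower than in NKT cells, and 16.2% higher than in T cells. Against NK cells 0 of the 8 were called in either direction. None of the 8 was at 0 in a group, and Lyz2, Csf1r and Adgre1 were not measured. The 5 B-cell markers with a peak summed to 128 to 241 CPM in lymphomas, 118 to 182.5 in NK, 75.6 to 105 in T and 53.6 to 72.9 CPM in NKT libraries. Of the 5, 4 were called higher in lymphomas than in NKT cells, 4 higher than in T cells and 0 against NK cells. The 4 mast-cell and basophil markers summed to 72.5 to 96.0 CPM in lymphomas and 180 to 215 CPM in NKT libraries, while 2 were called higher in lymphomas (Gata2 at 2.50 and Mcpt8 at 3.02 log2) and 1 lower (Hdc at -1.31), with a median of 1.54. Mcpt8 was at 0 in NK libraries. G6pc, the 1 hepatocyte marker with a peak, held 13.9 to 72.1 CPM in lymphomas and 8.29 to 47.6 CPM in the NK libraries from spleen. The T libraries held 3.20 to 8.88 and the NKT libraries 3.20 to 7.57 CPM. G6pc was called higher than in T and NKT cells both in lymphomas and in NK cells. Between lymphomas and NK cells it was not called. The part of such cells in the Tyrobp and Fcer1g values was not tested.

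For each member the 3 genes whose summed log2 CPM followed it most closely over the 18 libraries were found among 17580 genes with a mean count of at least 20. These values share library depth and the group structure and are given as a description. Ncr1 was followed by Piwil2 (Pearson r = 0.92), Tmem37 (0.89) and Gm12443 (0.864). Gm12443 held 5.44 to 62.3 CPM in lymphomas, 19.4 to 38.0 CPM in NK, 1.45 to 9.79 CPM in T and 0.582 to 5.29 CPM in NKT cells. Tyrobp was followed by Dhx34 (0.885), Spi1 (0.876) and Lama3 (0.861). Spi1, which encodes the myeloid and B-cell factor PU.1, held 72.8 to 96.5 CPM in NK cells, 32.7 to 83.5 CPM in lymphomas, 38.2 to 46.5 CPM in NKT and 34.4 to 38.4 CPM in T cells. Fcer1g was followed by Adgrb2 (0.87), Gm48657 (0.864) and Ccdc81 (0.856). Sh2d1b1 was followed by Mir599 and Mir875, which are assigned the same peaks and so have 1 value (0.919), and by Gm42944 (0.891).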

How the data were processed

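ATAC-seq reads were counted in 9 lymphoma, 3 T, 3 NKT and 3 NK libraries, numbered within groups in accession order. The authors deposited whole-number counts per peak, not normalized, for 61224 peaks, and log2 CPM values, which correlate at r = 1 with those recomputed here after TMM scaling. Per the submitters' processing notes, MACS2 2.1.2, bedtools, edgeR 3.24.3 and mm10 were used. For the aligner, duplicate filter, Tn5 offset and peak selection, the record is: not given in the sources used here. Classes and gene symbols are those of the deposited annotation, and positions are printed as deposited, without a statement of whether they count from 0 or 1.

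The test was that of edgeR 4.0.16 (with limma 3.58.1, under R 4.3.3): TMM scaling, filterByExpr by group (61220 peaks kept) and 1 quasi-likelihood fit of all 18 libraries in 4 groups, with a biological coefficient of variation of 0.431 and 14 residual degrees of freedom. P-values are two-sided and adjusted by Benjamini-Hochberg over all peaks, or over 20325 genes whose peak counts were summed (a peak with 2 symbols counts toward both). The threshold was 0.05. SE is the size of the log2 fold change divided by the root of F. CPM values are counts over TMM-scaled library size, with no prior, and log2 CPM for correlations used a prior count of 2. T 1 and T 2, the 2 most similar libraries of a group, had a chi-square of 2.181 per degree of freedom, or 1.10 with counts halved, so they differed by little more than the sampling of fragments. They were kept as 2 libraries, and values without each are given. Same-numbered normal libraries had correlations of -0.037 to 0.046, and no label pairs them, so the main fit did not pair them. Such correlations cannot exclude a shared animal or batch. The members, pathway and marker lists and tests were chosen with earlier results of these data known. Named were all member peaks, Hcst, Cd247, Syk, Zap70, Sh2d1b2, Klrk1, Fcgr3 and Lat2 (Sh2d1a was on this list and is not analysed here), up to 2 called genes per list, direction and comparison with the largest change, all peaks within 100 kb, and the 3 most alike genes. Other marker and pathway genes named beside a count were picked after their values were seen. The fit was also run on simulated counts with 1 spread for all peaks and equal group means apart from a set of raised peaks. That run cannot show how the fit behaves when differences depend on level or counts come in pairs. Alternatives were other scalings, filters and tools (DESeq2 1.42.0), fits of 2 groups, a replicate block, promoter peaks only, the smaller table of 27727 peaks, leaving out each library and, chosen after seeing the data, cyclic loess with limma-trend and halved counts. No library column was left unmapped.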

Additional observations from a re-analysis of the deposited data

How the results depend on the processing

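Of the 8 member peaks, the Ncr1 promoter was called higher in lymphomas than in NKT cells in all 18 fits that left out a library and in the 9 other settings that tested it (2.85 to 4.76 log2). The numbers of member peaks called, leaving out each library, ran from 4 to 6 against NKT, 1 to 5 against T, 1 to 3 against NK, 5 to 6 for NK against NKT, 2 to 5 for NK against T and 0 to 1 for NKT against T cells. The pathway gene counts ran from 26 to 39, 10 to 23, 11 to 17, 15 to 22, 3 to 9 and 3 to 7 in the same order. A mean count of at least 20 kept 3 of 8 members and left 1, 3, 0, 1, 1 and 0 calls (edgeR, with 0 and 2 at an unadjusted p below 0.05 where none was called). The members it removed could not be called. Of all 36701 peaks it kept, 6560, 4060, 2979, 1429, 1072 and 1326 were called higher. Those called lower were 5492, 4348, 2574, 1477, 798 and 579. Cyclic loess left 1 call against NKT, 2 against T and 0 for NKT against T (limma-trend, 3 at an unadjusted p below 0.05). Of all 61220 peaks, 2867, 3153 and 934 were then called higher and 3951, 4119 and 342 lower. RLE size factors and library totals also left 0 for NKT against T (edgeR, 2 unadjusted each, while DESeq2 called 1), and TMM within each chromosome left 1 against NK and 9 pathway genes for NKT against T. Of all 61220 peaks, that last setting called 2351 higher and 1310 lower for NKT against T. Fits of the 2 compared groups gave 3 member calls (of 4 tested) for NK against NKT, 3 (of 3) for NK against T and 27 pathway genes for NKT against T. For NK against NKT these fits called 2035 of all 26149 peaks higher and 1740 lower. For NK against T they called 1307 of 22706 higher and 536 lower. For NKT against T they called 5169 of 38605 peaks higher and 4791 lower, where the main fit called 2130 and 1072 of 61220. With the replicate block, 5 members could be tested and 3 were called for NK against NKT, 3 for NK against T and 0 for NKT against T (edgeR, 2 unadjusted), with 10 pathway genes for NKT against T. Of all 38218 peaks tested there, 2324, 1455 and 2369 were called higher and 2504, 1023 and 1574 lower, in the same order. The same number was the best match for some libraries and not for others, which cannot decide whether the numbers pair them. Promoter peaks alone gave 21 pathway genes against NKT and 1 for NKT against T. The smaller table holds no member peak and gave 22 pathway genes against NKT, 13 against T, 10 for NK against NKT and 0 for NK against T (edgeR, 8 unadjusted, while DESeq2 on the larger table called 9). Halved counts gave 5 pathway genes for NK against T. Shares of all genes called were not recorded for these settings or for the fits that left out a library. Changes in the pathway counts therefore cannot be told from changes over all genes. RLE factors moved the median of all peaks against NKT cells from 0.27 to 0.74 log2, and the calls from 14225 higher and 11871 lower to 21802 and 5735. Single values that changed sign, none of them called after the change, were as follows. Over the fits that left out a library, Tyrobp peak 3 against NK ran from -1.12 to 0.54 (without NK 1), the Hcst sum against T from -0.18 to 0.011 (without T 2) and against NK from -0.032 (without NK 2) to 0.57, Sh2d1b2 against NK from -0.63 to 0.68 (without NK 3), Klrk1 against NKT from -0.39 to 0.022 (without NKT 2) and Fcer1g for NKT against T from -0.034 (without T 2) to 1.06. In other settings, the Sh2d1b1 peak for NKT against T was 0.39 under cyclic loess. With TMM within each chromosome, Hcst against T was 0.065 (0.20 in the smaller table) and Sh2d1b2 against NK 0.047. Klrk1 against NKT was 0.29 with promoter peaks and 0.083 in the smaller table, and against T -0.70 in the smaller table. With promoter peaks, Prkcq was 0.052 against NKT and 0.37 against T, and for NKT against T Tyrobp was -0.62 and Fcer1g -1.04. The cause of these changes was not tested. NK libraries, with 417107 to 596601 counts, limit every comparison with NK cells, where 1 count is worth up to 2.11 CPM.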
